A study of Mus musculus with 12 samples.

Results

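Heme is built in red cell precursors by a chain of enzymes that begins and ends in the mitochondrion and passes through the cytosol in between. The chain starts when glycine, brought into the mitochondrion by the carrier SLC25A38, is joined to succinyl-CoA by ALAS2, the red cell form of the first enzyme and the step that limits the rate. It ends when ferrochelatase, FECH, inserts iron into protoporphyrin. The 9 genes described here are Slc25a38, the 7 enzyme genes Alas2, Alad, Uros, Urod, Cpox, Ppox and Fech, and Blvrb, which encodes biliverdin reductase B, a reductase of the heme breakdown branch that is abundant in red cells. They were taken by symbol from the 46603 genes of the count files. The other enzyme steps of the pathway were not analysed here.

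The counts came from RNA sequencing of whole tissue from mice lacking nuclear myosin 1 (KO) and wild-type (WT) mice, all 8 months old and of the C57/Bl6 strain. The 4 groups were KO blood, WT blood, KO spleen and WT spleen, with 3 libraries each. Blood was drawn from the submandibular vein and a piece was cut from the tip of the spleen. The labels do not say whether each library came from a separate mouse, so the p-values measure the spread between these libraries, which may be technical. Levels are in CPM with globin left out, which is the count of a gene scaled to the library total, after globin counts were removed from that total.

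The libraries do not divide by their tissue labels. Globin took 48.9% to 56.1% of counts in 6 libraries, here called globin-rich, and 0.846% to 5.89% in the other 6, here called globin-poor. The globin-rich libraries are KO blood 02, KO blood 03, WT blood 01, KO spleen 03, WT spleen 02 and WT spleen 04. A cut at 25% separates the kinds with nothing between 5.89% and 48.9%. The 6 markers of red pulp macrophages, cells of the spleen, summed to 2.44 to 7.18 CPM in globin-rich libraries, against 850 to 1332 CPM in globin-poor ones. The globin-rich libraries labelled spleen thus nearly lacked them, and the globin-poor libraries labelled blood held them. Total counts also followed this division, at 9.32 to 12.1 M counts in globin-rich libraries, against 23.1 to 28.2 M in globin-poor ones. Myo1c, whose count sums nuclear myosin 1 with the other forms of the gene, stood at 128 to 200 CPM in KO and 58.5 to 219 CPM in WT libraries, so it checks neither the knockout nor the labels.

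The heme synthesis genes split into opposite patterns along the library division. Alas2 and Fech, the first and last enzymes of the chain, were far higher in globin-rich than in globin-poor libraries. Alad, Uros, Cpox and Ppox, which act between them, and the carrier gene Slc25a38 were lower. Urod and Blvrb lay close to level. The kinds were defined by globin, a red cell product, so these differences are given as a description without a test. In bulk tissue, fewer cells of a type and less RNA per cell cannot be told apart.

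Alas2 (ENSMUSG00000025270, plus strand of chromosome X, 150547375 to 150570638 in GRCm38) stood at 52160, 52330 and 52220 CPM in the globin-rich libraries KO blood 02, KO blood 03 and WT blood 01. It stood at 40550, 57700 and 54070 CPM in the globin-rich libraries KO spleen 03, WT spleen 02 and WT spleen 04. In globin-poor libraries it stood at 998, 983 and 1402 CPM in KO blood 04, WT blood 03 and WT blood 04, and at 579, 308 and 125 CPM in KO spleen 01, KO spleen 04 and WT spleen 01. The kinds did not overlap, and the median was 66.9 times higher in globin-rich libraries. Among the 14545 genes that averaged 1 CPM or more, 0.646% had a higher ratio between the kinds.

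Fech (ENSMUSG00000024588, minus strand of chromosome 18, 64452914 to 64490251) encodes the enzyme that completes heme. Its level was 7584 to 13900 CPM in globin-rich libraries, with a median of 11860. In globin-poor ones it was 61.7 to 692 CPM, with a median of 416. It did not overlap between the kinds either, and its median was 28.5 times higher in globin-rich libraries. Both genes had their lowest globin-rich level in KO spleen 03, as did Uros, Urod, Cpox and Blvrb. Their lowest globin-poor level was in WT spleen 01, as it was for all 9 genes.

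Alad encodes the dehydratase that joins 2 molecules of the ALAS product into the first ring, porphobilinogen (ENSMUSG00000028393, minus strand of chromosome 4, 62509169 to 62519918). It stood at 13.2, 15.8 and 13.6 CPM in the globin-rich libraries KO blood 02, KO blood 03 and WT blood 01, and at 13.7, 21.3 and 13.7 CPM in KO spleen 03, WT spleen 02 and WT spleen 04. In globin-poor libraries it stood at 744, 661 and 482 CPM in KO blood 04, WT blood 03 and WT blood 04, and at 430, 178 and 71.5 CPM in KO spleen 01, KO spleen 04 and WT spleen 01. The median was 33.3 times lower in globin-rich than in globin-poor libraries, with no overlap.

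Uros, uroporphyrinogen III synthase, closes the ring (ENSMUSG00000030979, minus strand of chromosome 7, 133686243 to 133710072). Its level was 8.96 to 18.7 CPM in globin-rich libraries, against 27.8 to 276 CPM in globin-poor ones, and its median was 16.0 times lower in globin-rich libraries. The smallest count of any of the 9 genes was 40 reads of Uros in WT spleen 04. That is a level of 9.77 CPM, with a 95% Wilson interval of 7.18 to 13.3 CPM that covers counting error only. The next enzyme, uroporphyrinogen decarboxylase, is encoded by Urod (ENSMUSG00000028684, minus strand of chromosome 4, 116989965 to 116994413). Urod stood at 143 to 488 CPM in globin-rich libraries, against 78.4 to 687 CPM in globin-poor ones, so the kinds overlapped, and its median was 1.40 times lower in globin-rich libraries.

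Cpox, coproporphyrinogen oxidase, acts where the chain returns to the mitochondrion (ENSMUSG00000022742, plus strand of chromosome 16, 58670292 to 58717636). It lay at 33.8 to 61.4 CPM in globin-rich libraries, against 60.5 to 757 CPM in globin-poor ones, with a median 12.7 times lower in globin-rich libraries. The kinds overlapped only through WT spleen 01, the lowest globin-poor library, and WT spleen 02, the highest globin-rich one. Ppox, protoporphyrinogen oxidase (ENSMUSG00000062729, minus strand of chromosome 1, 171275990 to 171281186), lay at 41.8 to 57.6 CPM in the globin-rich kind and at 83.9 to 405 CPM in the globin-poor kind, with a median 6.42 times lower in globin-rich libraries. The carrier gene Slc25a38 (ENSMUSG00000032519, plus strand of chromosome 9, 120110374 to 120124504) lay at 17.6 to 29.1 CPM in globin-rich libraries, against 55.2 to 281 CPM in globin-poor ones, with a median 9.07 times lower in globin-rich ones.

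Blvrb (ENSMUSG00000040466, plus strand of chromosome 7, 27447978 to 27466144) overlapped between the kinds, at 551 to 1210 CPM in globin-rich libraries, against 110 to 965 CPM in globin-poor ones. Its median was 1.41 times higher in globin-rich libraries. The direction of the genes nearest to level depended on the scaling. With globin kept in the total, the globin-rich over globin-poor ratio of Blvrb was 0.696. With DESeq2 size factors it was 3.25 for Blvrb, and that of Urod was 1.52 in place of 0.716. The other 7 genes kept their direction under both scalings, but the size of the ratio moved. The globin-rich over globin-poor ratio of Alas2 was 34.1 with globin kept and 128 with DESeq2 size factors, and that of Fech was 14.0 and 58.6. That of Alad was 0.0156 with globin kept and 0.0677 with DESeq2 size factors, against 0.0300 as reported.

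**Figure D1:**
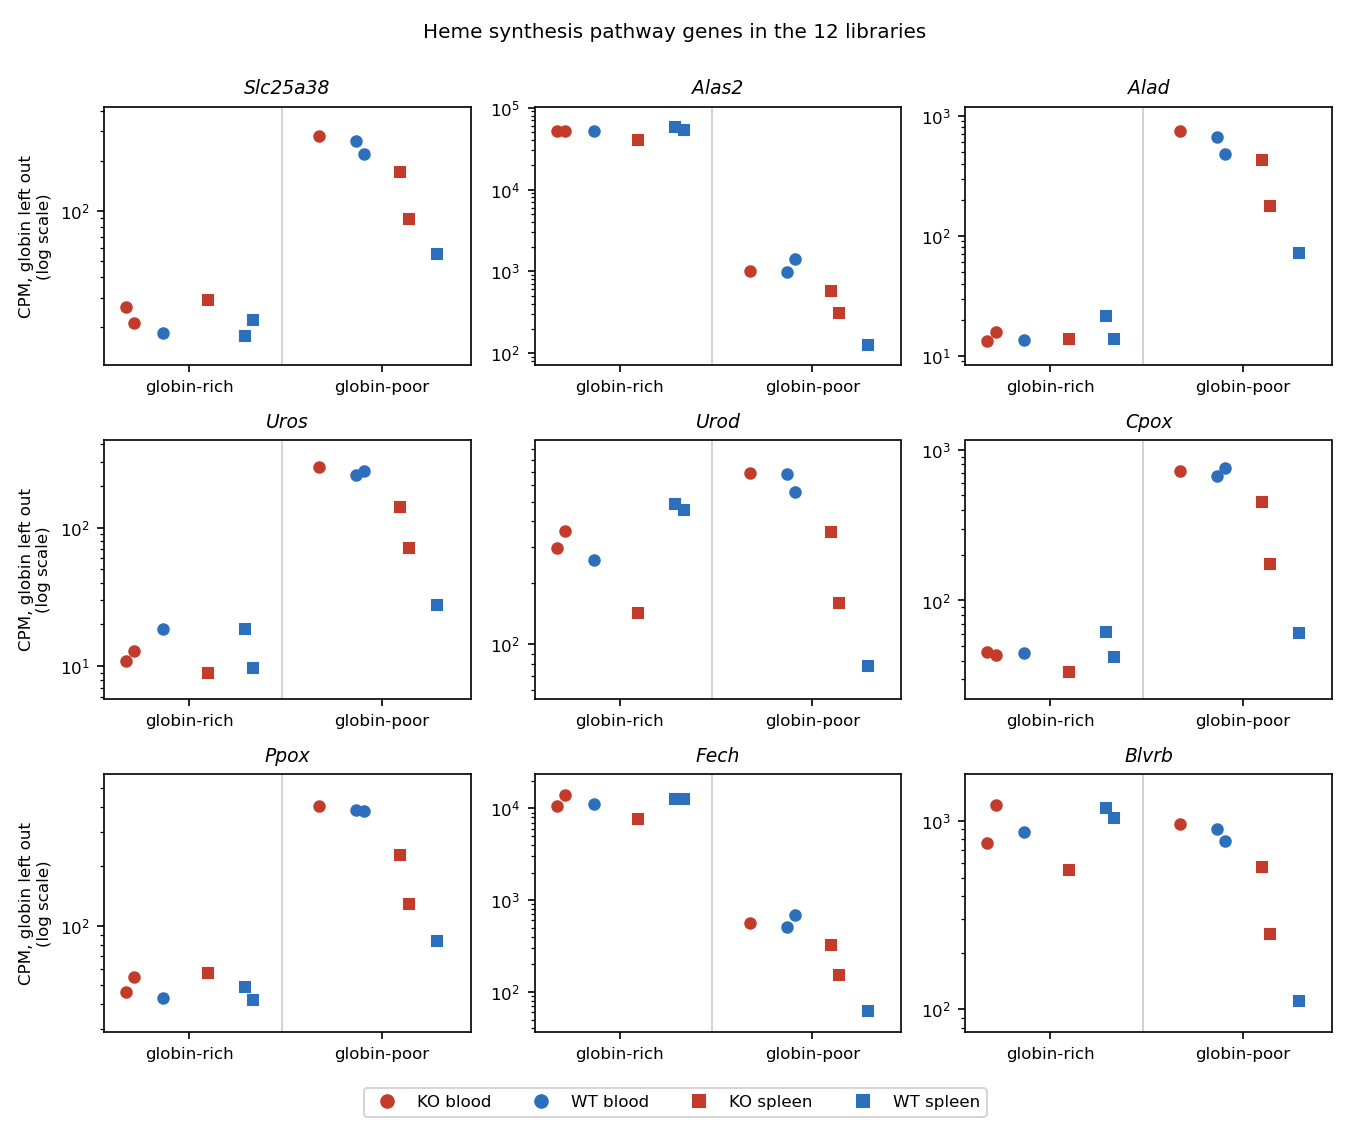
CPM with globin left out (log scale) of each of the 9 genes in the 12 libraries, 1 point per library, coloured by genotype and shaped by tissue label, with globin-rich libraries left of globin-poor ones. Alas2 and Fech are higher in all 6 globin-rich libraries, Alad, Uros, Ppox and Slc25a38 are lower in all 6, and Cpox, Urod and Blvrb overlap.

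These ratios are read against all genes. The median log2 ratio of globin-rich over globin-poor libraries was -1.19 over the 14545 genes, and 15.3% of them had a ratio above 1. Of the 9 heme genes, 2 were higher in every globin-rich library than in any globin-poor one, a state met by 3.53% of all genes. Another 4 were lower without overlap, a state met by 49.8% of all genes, so that count is no feature of the heme genes. On the log2 scale Alad had a ratio of -5.06, Uros -4.00, Cpox -3.67, Slc25a38 -3.18 and Ppox -2.68. Only 4.20% of genes had a lower ratio than Alad, whereas 14.0% had a lower one than Ppox. Urod at -0.48 and Blvrb at 0.50 lay above the all-gene median, with 25.9% and 10.1% of genes above them.

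The make-up of the heme synthesis transcripts differed between the kinds. Alas2 made up 77.0% to 82.8% of the summed CPM of the 9 genes in globin-rich libraries, and 17.7% to 25.3% in globin-poor ones. Fech made up 15.5% to 20.5% in globin-rich libraries and 9.14% to 12.5% in globin-poor ones. The 5 genes Slc25a38, Alad, Uros, Cpox and Ppox each made up at most 0.118% in any globin-rich library, and between 3.99% and 13.8% in globin-poor ones. The sum itself was 48980 to 72140 CPM in globin-rich libraries, against 674 to 5644 CPM in globin-poor ones.

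**Figure D2:**
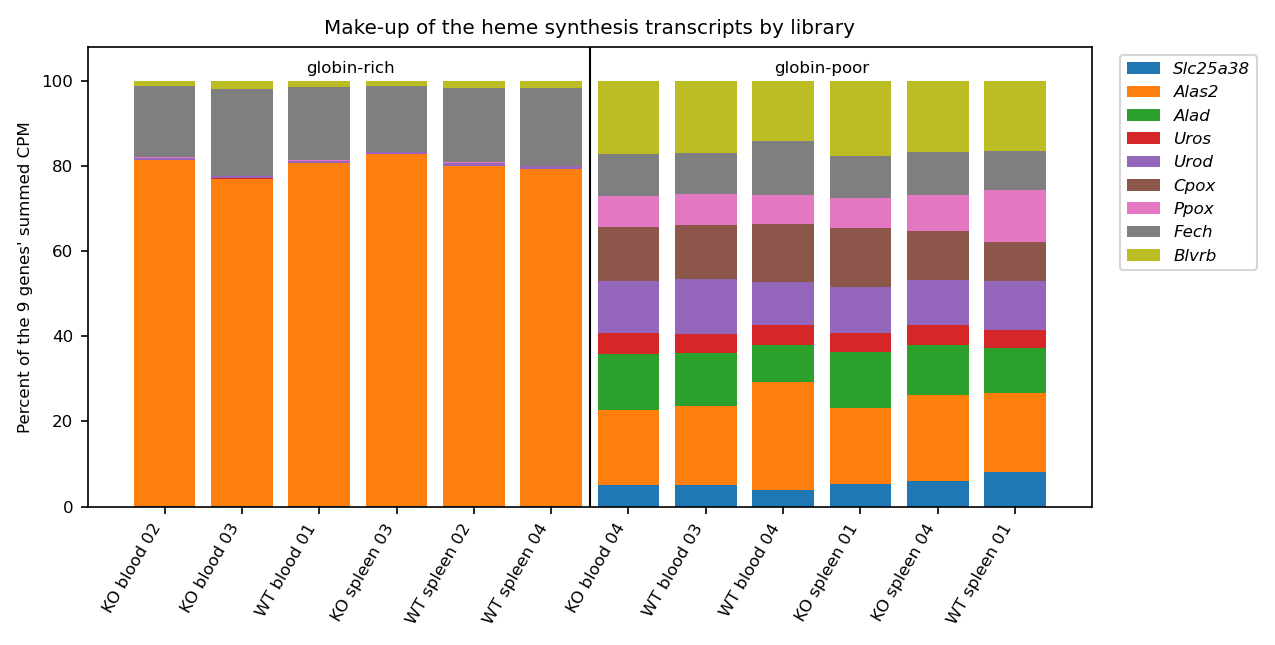
Each bar is 1 library and shows the percent of the summed CPM of the 9 genes that each gene takes, with the 6 globin-rich libraries left of the 6 globin-poor ones. Alas2 and Fech take nearly the whole bar in globin-rich libraries, while all 9 genes are visible in globin-poor ones, where Alas2 takes 17.7% to 25.3%.

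Levels of different genes were compared per kilobase of annotated exon. Alas2 was the highest of the 9 genes in all 12 libraries. In globin-rich libraries it lay at 16880 to 24010 CPM per kilobase, followed by Fech at 548 to 1004, Blvrb at 198 to 435 and Urod at 55.1 to 188. Neighbours in this order did not overlap. Ppox, Slc25a38, Alad and Cpox lay between 5.08 and 12.8 CPM per kilobase and overlapped one another, except that Ppox at 9.25 to 12.8 lay just above Cpox at 5.08 to 9.21. Uros was the lowest in all 6 globin-rich libraries.

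In globin-poor libraries the order was different and much flatter. Median levels were 325 CPM per kilobase for Alas2, 244 for both Alad and Blvrb, 176 for Urod, 84.0 for Cpox, 71.3 for Slc25a38, 67.5 for Ppox, 53.4 for Uros and 30.1 for Fech, and the ranges of neighbours overlapped. Fech was the lowest in all 6 globin-poor libraries. Its annotated exons sum to 13838 bases, the longest of the 9 genes, so its level per kilobase is understated if short transcripts prevail. The ratio of Alas2 to Alad per kilobase was 2106 to 3077 in globin-rich and 1.05 to 2.26 in globin-poor libraries. The ratio of Alas2 to Fech was 21.7 to 30.8 in globin-rich and 10.3 to 11.7 in globin-poor libraries.

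The genes were also set against a red cell gene. Slc4a1 encodes band 3, the anion exchanger of the red cell membrane. It stood at 2225 to 8023 CPM in globin-rich libraries, against 260 to 3916 CPM in globin-poor ones. Among globin-poor libraries Alas2 varied 11.2-fold between the highest and the lowest library, Cpox 12.5-fold, Fech 11.2-fold and Alad 10.4-fold. Relative to Slc4a1 the same spreads were 1.75-fold, 1.45-fold, 1.66-fold and 2.23-fold. Ppox and Slc25a38, with raw spreads of 4.83-fold and 5.10-fold, kept 3.30-fold and 3.76-fold spreads relative to Slc4a1, with WT spleen 01 the highest for both. Among globin-rich libraries the spread of 7 of the 9 genes was wider relative to Slc4a1, at 2.79-fold against 1.42-fold in CPM for Alas2, 3.13-fold against 1.61-fold for Alad, 2.82-fold against 1.82-fold for Cpox and 3.98-fold against 1.38-fold for Ppox. Urod and Blvrb were the 2 genes with a narrower spread relative to Slc4a1.

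Across the kinds the ratios to Slc4a1 lay much further apart. Alas2 was 6.52 to 18.2 times Slc4a1 in globin-rich and 0.275 to 0.480 times in globin-poor libraries. Alad was 0.00197 to 0.00616 times Slc4a1 in globin-rich and 0.123 to 0.274 times in globin-poor libraries. Relative to Slc4a1, 2 of the 9 genes, Alas2 and Fech, had a higher median in globin-rich libraries. Cell cycle markers summed to 55.9 to 177 CPM in globin-rich libraries, against 360 to 3137 CPM in globin-poor ones. Lower levels without overlap were met by 49.8% of all genes, so this direction alone does not set these markers apart. The part of dividing cells, depth or other cell types in the pattern was not tested.

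**Figure D3:**
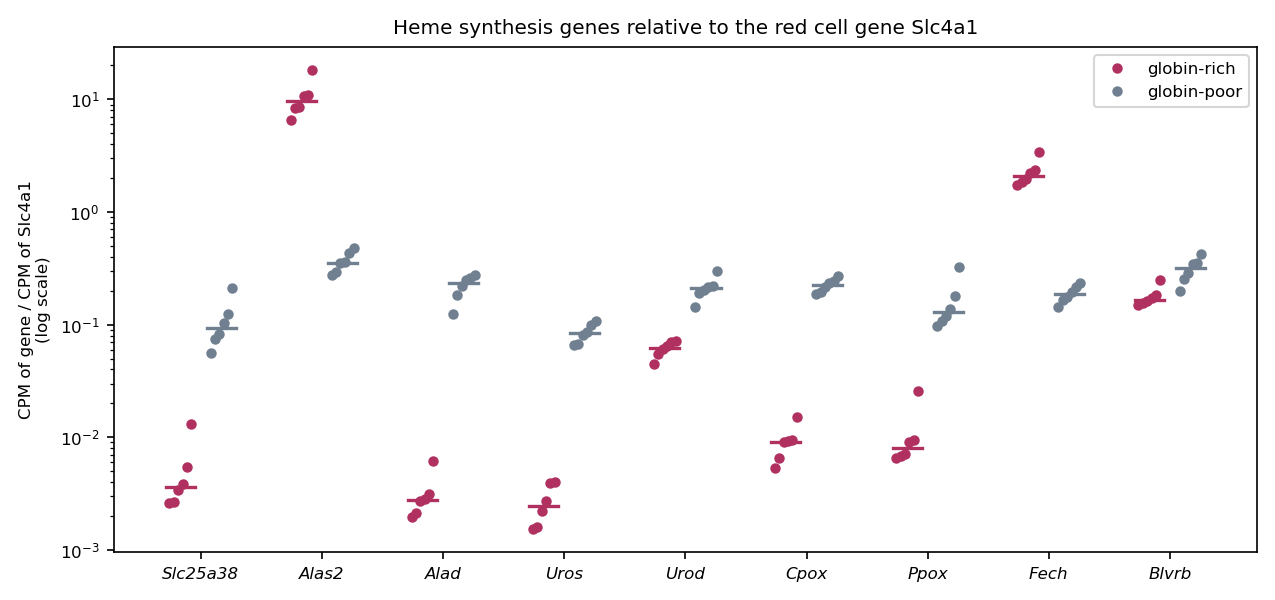
CPM of each gene divided by the CPM of Slc4a1 in the same library (log scale), with 6 globin-rich libraries left of 6 globin-poor libraries for each gene, 1 point per library and bars at the medians. Within globin-poor libraries the points of a gene lie within 3.76-fold of one another, while the globin-rich median is above the globin-poor one for Alas2 and Fech and below it for the other 7 genes.

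Promoter sequences are shown because the genes split between the kinds although all belong to 1 pathway. Fech was left out of the promoter search, so its promoter is not described here. RefSeq windows of the 250 bases before an annotated start (GRCm38.p6) were taken for the other 8 of the 9 genes, in 11 windows. They were searched on both strands for the GATA motif, the site of the red cell factor GATA1, spelled AGATAA, and also counted where it read AGATAG, where it read TGATAA or where it read TGATAG. They were also searched for CCNCNCCC, a form of the CACCC box. GATA was present in 4 of the 11 windows, belonging to Alas2, Cpox, Uros and Blvrb, and in 26.5% of 32536 distinct windows of all genes. CCNCNCCC was present in 6 of the 11 windows, belonging to 5 genes, and in 46.2% of all. The windows of Alas2, from the set higher in globin-rich libraries, and of Cpox, from the lower set, lie at the start of the gene. Those of Uros and Blvrb that hold the motif precede other RefSeq starts and lie inside the gene. The Alas2 and Cpox windows, at chrX:150547167-150547374 and at chr16:58669958-58670207, both on the plus strand, are given 5′ to 3′ up to the first annotated exon, with the GATA matches in capitals.
Alas2: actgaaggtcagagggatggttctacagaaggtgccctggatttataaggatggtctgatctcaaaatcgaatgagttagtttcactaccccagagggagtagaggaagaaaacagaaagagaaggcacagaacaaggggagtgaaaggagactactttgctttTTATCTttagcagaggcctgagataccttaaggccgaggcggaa
Cpox: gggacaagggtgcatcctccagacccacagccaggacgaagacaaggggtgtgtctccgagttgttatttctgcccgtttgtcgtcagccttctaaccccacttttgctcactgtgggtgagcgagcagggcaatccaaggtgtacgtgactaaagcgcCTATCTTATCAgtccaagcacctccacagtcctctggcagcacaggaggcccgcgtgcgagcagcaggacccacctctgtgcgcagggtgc
The Alas2 match begins 86 bases before the RefSeq start, whose window ends at base 150547416, and the printed run stops earlier because the GENCODE exon begins at 150547375. The Cpox matches begin 91 and 86 bases before the RefSeq start, whose window ends at base 58670207, and overlap by 1 base. All 3 are read on the opposite strand. A match of letters is a description of the window and does not show binding.

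Bpgm had the pattern most like that of Alas2. Likeness was the root mean square difference in log2(CPM + 1) over the 12 libraries, each gene centred on its own mean, among 8863 protein-coding genes that averaged 10 CPM or more. The nearest non-member was Bpgm at 0.25, which makes the red cell metabolite that lowers oxygen affinity. It was followed by Fam220a at 0.42, by the ubiquitin enzyme gene Ube2o at 0.53 and by the membrane skeleton gene Epb41 at 0.62. Fech lay 0.64 from Alas2, while Alad lay 5.45 from it.

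The other genes had different neighbours. The nearest non-member of Fech was Isg20 at 0.14, and that of Blvrb was the red cell peroxidase gene Prdx2 at 0.17. Cpox was nearest to the transferrin receptor gene Tfrc at 0.23, and Slc25a38 to the centromere histone gene Cenpa at 0.14. Alad was nearest to the muscle-type phosphofructokinase gene Pfkm at 0.27, Uros to the glucose transporter gene Slc2a4 at 0.26, Urod to Ubac1 at 0.27 and Ppox to Sppl2b at 0.22. Among the members themselves, Uros and Cpox lay 0.28 apart, Ppox and Slc25a38 0.32, and Urod and Blvrb 0.55.

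Other genes that serve heme synthesis or handle heme were found in both directions. Of 24 genes for mitochondrial iron and heme supply and for heme export, import and breakdown, 7 were higher in every globin-rich than in any globin-poor library, 11 were lower and 6 overlapped. Over all genes 3.53% were higher and 49.8% lower without overlap, so the count of lower genes is near the share of all genes. Among the higher ones, Slc25a37, which encodes the mitochondrial iron importer mitoferrin 1, had a median of 6295 CPM in globin-rich libraries, against 1630 CPM in globin-poor ones. The globin-rich medians were 5602 CPM for the iron-sulfur cluster gene Isca1, 6806 CPM for the mitochondrial carrier gene Slc25a39 and 2266 CPM for the heme transporter gene Slc48a1. The globin-poor medians were 331 CPM for Isca1, 331 CPM for Slc25a39 and 177 CPM for Slc48a1. Among the lower ones, Abcb10, a transporter needed for heme synthesis in red cell precursors, had medians of 19.6 CPM in globin-rich libraries, against 417 CPM in globin-poor ones. Tmem14c, which serves porphyrin import, had medians of 26.5 CPM in the globin-rich kind and 474 CPM in the globin-poor kind. Alas1, the form of the first enzyme used outside red cells, stood at 4.32 to 24.9 CPM in globin-rich libraries, against 38.3 to 63.5 CPM in globin-poor ones. Hmox1, heme oxygenase 1, stood at 2.50 to 25.1 CPM in globin-rich libraries, against 198 to 282 CPM in globin-poor ones. Hmox1 is also made by red pulp macrophages, whose markers moved with it; their part in its level was not tested.

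Within the globin-poor libraries, the blood and spleen labels could be compared with 3 libraries each. Genotype was not balanced, with 2 WT and 1 KO libraries labelled blood and 1 WT and 2 KO libraries labelled spleen. All 9 genes were higher in every library labelled blood than in any labelled spleen. Alas2 was 998, 983 and 1402 CPM under the blood label and 579, 308 and 125 CPM under the spleen label, as listed above. The log2 fold change of blood over spleen was 1.94 ± 0.53 (SE) for Alas2, 1.91 ± 0.56 for Fech, 1.91 ± 0.54 for Urod, 1.90 ± 0.55 for Uros and 1.85 ± 0.66 for Cpox. It was 1.71 ± 0.57 for Blvrb, 1.69 ± 0.63 for Alad, 1.63 ± 0.37 for Ppox and 1.50 ± 0.43 for Slc25a38. The genes thus stood higher by similar amounts, with a median of 1.85 against -0.04 over all 16422 genes tested.

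None of these 9 differences passed in edgeR's quasi-likelihood test, where Benjamini-Hochberg adjusted p-values over all genes lay between 0.0953 and 0.175. All 9 had an unadjusted p under 0.05, as did 24.2% of all genes, and 0.0731% of all genes were called at an adjusted p under 0.05. Higher levels without overlap were met by 9.17% of all genes. DESeq2 called 8 of the 9 genes and limma-voom 0. With genotype as a term edgeR called 0 of the 9. Log2 fold changes were then 1.88 to 2.64, with adjusted p-values of 0.0650 to 0.0799. Without KO spleen 01, the library labelled spleen with the highest levels, edgeR called all 9, with log2 fold changes of 2.12 to 2.89 and adjusted p-values of 0.00279 to 0.00542. Red cell markers summed to 15990 to 17630 CPM in those labelled blood, against 1345 to 8830 CPM in those labelled spleen. Cell cycle markers summed to 2715 to 3137 CPM in those labelled blood, against 360 to 1924 CPM in those labelled spleen. The part of red cell content or dividing cells in the difference was not tested.

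Of the 24 supply, export and breakdown genes, edgeR called 0 in this comparison, 0 higher and 0 lower. The 17 supply genes had a median log2 fold change of 1.11, and the 7 export, import and breakdown genes one of 0.25, against -0.04 over all genes tested. Slc25a37 was at 2.07 ± 0.46 with an adjusted p of 0.0953, Isca1 at 1.63 ± 0.34 and Slc25a39 at 1.41 ± 0.30, both with an adjusted p of 0.0938. Slc48a1 was at 0.94 ± 0.22 with an adjusted p of 0.0972. These genes were higher in globin-rich libraries as well, whereas Alad, Uros, Cpox, Ppox and Slc25a38 were higher under the blood label here but lower in globin-rich libraries.

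The same labels did not separate the 9 genes in globin-rich libraries, although the sums of the 6 platelet markers did not overlap between them. Those markers summed to 2180 to 3286 CPM in libraries labelled blood, against 6300 to 6813 CPM in those labelled spleen. By edgeR 0 of the 6 platelet markers were called, with adjusted p-values of 0.0696 to 0.1115. Log2 fold changes of blood over spleen lay between -0.66 for Urod and -0.16 for Uros, all 9 below 0, with SEs of 0.22 to 0.55. The smallest adjusted p among them was 0.613. edgeR called 0 of the 9 genes, with 0 at an unadjusted p under 0.05 (13.5% of all genes were), and 0.00853% of all genes. DESeq2 and limma-voom also called 0 of the 9. With library size as the only scaling 7 of the 9 turned to above 0, and with genotype as a term 3 did. Leaving out KO spleen 03 gave 389 called genes, with 0 among the 9. No gene of the 9 was without overlap between the labels, against 7.7% of all genes higher and 3.84% lower. Whether the label difference itself differs between the kinds was not tested.

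The genotype comparison asks whether loss of nuclear myosin 1 alters heme synthesis transcripts in blood or in spleen. No gene of the 9 passed under either tissue label. In simulated data with the spread of these libraries, edgeR called 0% of 8-fold changes under either label. The 0 calls thus do not show that genotype left these genes unaltered. Blood and spleen are labels here, since 6 of the 12 libraries go against theirs by globin and macrophage markers, and whether libraries were exchanged was not tested. In blood, Alas2 stood at 52160, 52330 and 998 CPM in KO and at 52220, 983 and 1402 CPM in WT libraries. Both groups held both kinds, with 2 globin-rich libraries in KO and 1 in WT blood. The log2 fold change of KO over WT was 1.24 ± 2.25 for Alas2 and 1.36 ± 1.84 for Fech, against -0.49 ± 1.58 for Alad and -0.68 ± 1.15 for Cpox. In all, 4 genes lay above and 5 below 0. With 1 library left out, Alas2 ranged from 0.62 without KO blood 03 to 5.83 without WT blood 01, Fech from 0.54 to 4.77 without the same libraries, and Alad from -3.78 without KO blood 04 to 0.23 without WT blood 03. Adjusted p-values were 1 for all 9 when rounded. Over 14939 genes, edgeR called 0%, and 24 genes (0.161%) reached an unadjusted p under 0.05, of which 0 were among the 9. All 9 overlapped between the genotypes, while 0.127% of genes were higher and 3.51% lower without overlap. DESeq2 and limma-voom called 0 of all genes, with 54 and 45 at an unadjusted p under 0.05. DESeq2 gave an adjusted p for 7 of the 9.

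In spleen the division ran the other way, with 1 globin-rich library in KO and 2 in WT spleen. Alas2 stood at 579, 40550 and 308 CPM in KO and at 125, 57700 and 54070 CPM in WT libraries, again without separation. The log2 fold change was -2.14 ± 3.11 for Alas2, -2.38 ± 2.50 for Fech and -1.91 ± 1.01 for Urod, against 1.85 ± 0.89 for Alad and 0.87 ± 0.43 for Slc25a38. With 1 library left out, Alas2 ranged from -7.86 without KO spleen 03 to -1.57 without KO spleen 04, and Fech from -6.60 to -1.81 without the same libraries. The smallest adjusted p among the 9 was 0.989. Over 15362 genes, edgeR called 0%, and 370 genes (2.41%) reached an unadjusted p under 0.05, with 0 of those among the 9. DESeq2 and limma-voom called 0, with 698 and 155 genes at that level. DESeq2 gave an adjusted p for 8 of the 9. Again all 9 overlapped, while 1.37% of genes were higher and 1.11% lower without overlap. The KO effect in blood minus that in spleen was 3.26 ± 3.72 for Alas2 and -2.49 ± 2.02 for Alad, with an adjusted p of 0.931 for each of the 9 in a fit of all 12 libraries. There edgeR called 0%, with 171 of 16858 genes (1.01%) and 0 of the 9 below 0.05 before adjustment, and DESeq2 and limma-voom called 0, with 510 and 69.

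With library kind as a term, the genotype values drew together. In blood they lay between -0.03 and 0.44, with 8 of 9 above 0. In spleen they lay between -0.30 and 0.68, with 8 of 9 above 0. None passed, with smallest adjusted p-values of 1 and 0.996.

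Genotype was also compared within each kind, 3 KO against 3 WT libraries across the tissue labels. In globin-rich libraries 8 of the 9 genes lay below 0, with a median log2 fold change of -0.55, against -0.004 over all genes tested. KO holds 2 and WT 1 of the globin-rich libraries labelled blood. With library size as the only scaling, or with the tissue label as a term, 7 of the 9 lay below 0. With the replicate number as a block all 9 did. Urod stood at 296, 358 and 143 CPM in KO and 259, 488 and 454 CPM in WT libraries, with a log2 fold change of -0.96 ± 0.50. Uros stood at 10.9, 13.0 and 8.96 CPM in KO and 18.7, 18.5 and 9.77 CPM in WT libraries, at -0.82 ± 0.35. Alas2 was at -0.53 ± 0.51 and Slc25a38 at 0.03 ± 0.25, and all 9 genes overlapped between the genotypes. Adjusted p-values lay between 0.719 and 0.978. edgeR called 0 of the 9, with 1, Uros, at an unadjusted p under 0.05, and 0% of 11728 genes, with 799 (6.81%) at that level. Without overlap, 8.3% of genes were higher and 2.75% lower. DESeq2 called 31 genes and limma-voom 0, with 856 and 1082 at that level, and neither called any of the 9. The count over all genes was 483 without KO blood 02. In simulated data with the spread of the globin-rich libraries, edgeR called 23.9% of 2-fold and 95.5% of 4-fold changes. The 0 calls among the 9 thus do not show that genotype left them unaltered.

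In globin-poor libraries the genotype values lay close to 0 with wide errors, and their sign rested on single libraries. Log2 fold changes of KO over WT ranged from -0.43 ± 0.88 for Alas2 to 0.12 ± 0.89 for Alad, and every gene overlapped between the genotypes. edgeR called 0 of the 9, with 0 at an unadjusted p under 0.05, and 0% of 16422 genes, with 138 (0.84%) at that level. Without overlap, 2.18% of genes were higher and 1.2% lower. DESeq2 called 5 genes and limma-voom 0, with 164 and 119 at that level, and neither called any of the 9. limma-voom put 7 of the 9 above 0. All 9 lay below 0 without KO blood 04, at -1.06 to -0.58, and without WT spleen 01, at -0.95 to -0.39. All 9 lay above 0 without WT blood 04, at 0.01 to 0.22. WT holds 2 and KO 1 of the libraries labelled blood here. With the tissue label as a term all 9 values lay above 0, between 0.66 and 1.31, with a smallest adjusted p of 0.747. In simulated data with the spread of the globin-poor libraries, edgeR called 5.97% of 2-fold and 74.6% of 4-fold changes. Here too, 0 calls do not show that genotype left the 9 genes unaltered.

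The 24 supply, export and breakdown genes gave the same count of calls in every genotype comparison, 0 in blood, in spleen, in the difference between them and within each kind. Their median log2 fold changes lay between -0.49 and 0.31 in the 4 comparisons of KO against WT. In blood 6 of the 7 export genes were high enough to be tested, and in globin-rich libraries 16 of the 17 supply genes were.

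**Figure D4:**
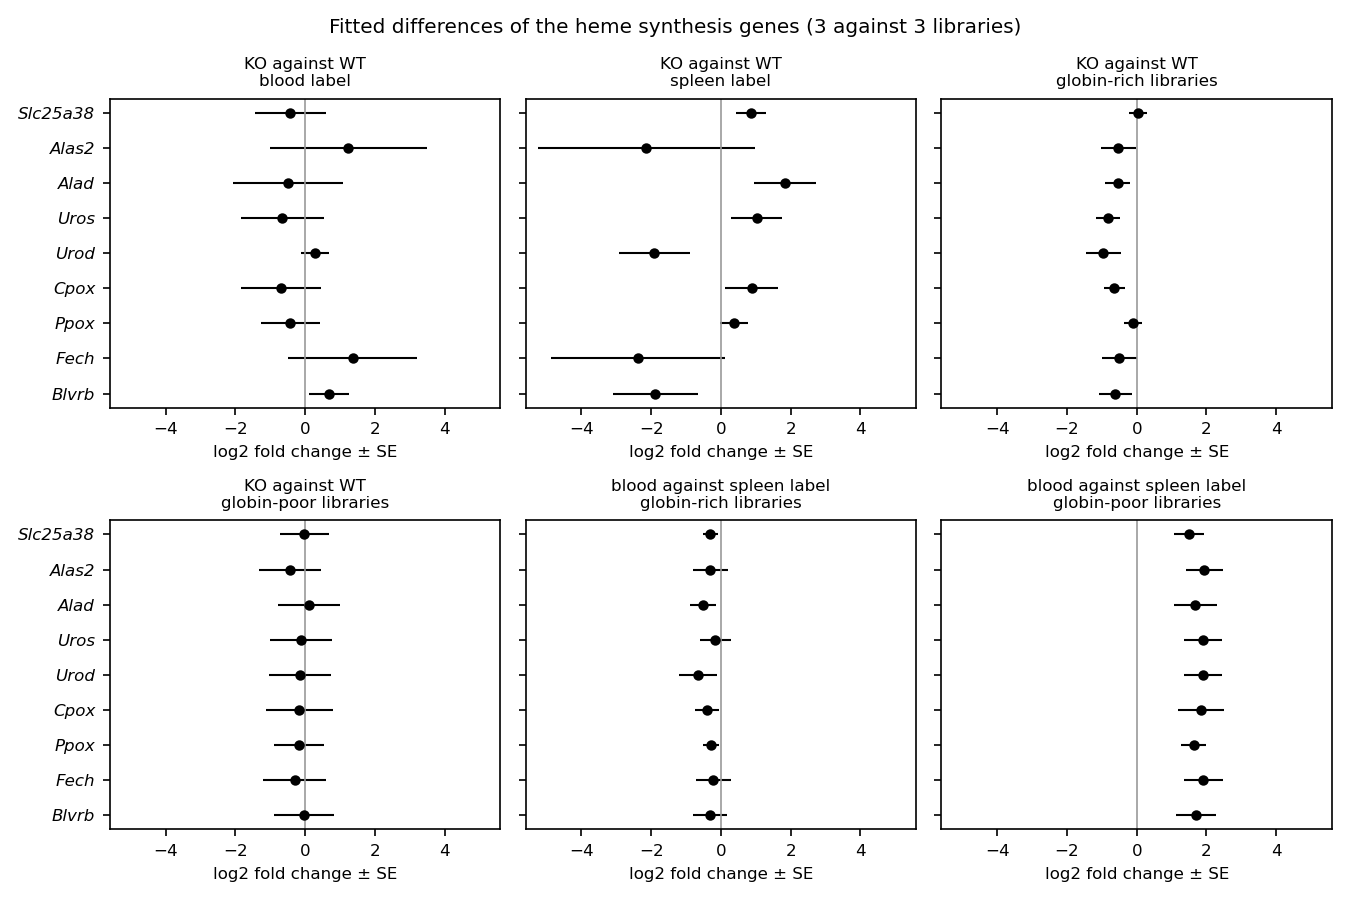
Log2 fold change with its SE of each of the 9 genes in 6 comparisons of 3 against 3 libraries, from edgeR fits. Genotype values in blood and spleen have SEs up to 3.11 and opposite signs for Alas2 and Alad, genotype values within a kind lie closer to 0, and blood over spleen in globin-poor libraries lies between 1.50 and 1.94 for all 9 genes.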

How the data were processed

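The deposited files hold raw read counts per Ensembl gene, 1 file per library, per the labels. Tools listed in the submitters' processing notes are HTSeq, HISAT2 2.0.4, SAMtools 0.1.19, Trimmomatic 0.36 and FastQC, and the builds listed are GRCm38 and mm10. The annotation release and strand setting are not given in the sources used here. Exons of Alas2, Cpox and Ppox overlap those of Apex2, Gpr15 and B4galt3 on the opposite strand, so some of their reads may be unassigned or shared. Symbols, positions and exon lengths came from GENCODE vM21. No library was a duplicate of another (smallest chi-square per degree of freedom 7.17).

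Each comparison was fitted on all genes with edgeR 4.0.16 in R 4.3.3 (filterByExpr, trimmed mean of M-values, robust quasi-likelihood F test), and a Benjamini-Hochberg adjusted p under 0.05 was called. SEs were derived from that test, as the absolute log2 fold change divided by the square root of F. Alternatives were DESeq2 1.42.0, limma-voom 3.58.1, other scalings and filters, added terms, the replicate number as a block, and fits without 1 library. A count of 0 would allow up to 0.11 to 0.733 CPM, globin left out. Scripts were tested on simulated data with 200 altered genes. The 9 genes were named in every comparison. They, the other lists and the division by globin were chosen with earlier results of these data known.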

Additional observations from a re-analysis of the deposited data

Results flagged for a closer look

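In each of the 18 sets made by 9 genes and 2 library kinds, the most extreme of 6 libraries was compared with its nearest neighbour. Alas2 in KO spleen 03 stood at 40550 CPM, below the other globin-rich libraries, of which the nearest was KO blood 02 at 52160 CPM. The 5 neutrophil markers summed to 2968 CPM in KO spleen 03, against 371 to 821 CPM in the other globin-rich libraries. Most of that sum was S100a8, at 1076 CPM, and S100a9, at 1791 CPM. Lcn2 and Ngp were also highest there among globin-rich libraries, though Ngp reached only 8.41 CPM. Camp, at 1.28 CPM, lay below the globin-rich maximum of 1.96 CPM. The part of neutrophils in the Alas2 level was not tested. Alad in WT spleen 02 stood at 21.3 CPM, above the other globin-rich libraries, of which the nearest was KO blood 03 at 15.8 CPM. The gaps were 0.677 and 0.685 of the whole range, past Dixon's limit of 0.625. At this limit about 1 in 20 independent, normally spread sets would be marked by chance, and here 2 of 18 were marked. The sets of a kind share the same 6 libraries, so that rate need not hold here.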

How the results depend on the processing

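Calls among the 9 genes changed only for blood against spleen in globin-poor libraries, with 8 called by DESeq2 and 0 to 9 when a library was left out. The count over all genes there, 12 as reported, was 4 with DESeq2 size factors, with library size only and with a filter of 5 CPM, 3 with the replicate block, 5 with a genotype term, 569 without a filter and 1622 by DESeq2, and 1 to 2904 without a library (2904 without KO spleen 01, at most 3 without any other). For blood against spleen in globin-rich libraries, 1 as reported, it was 5 with library size only, 57 with that filter, 392 without one, 839 by DESeq2, 45 by limma-voom and 31 with the block, and 0 to 389 without a library (389 without KO spleen 03, at most 1 without any other). For KO against WT it was 121 without a filter, 31 by DESeq2, 50 with the block and 0 to 483 without a library (483 without KO blood 02, 0 without any other) in globin-rich, and 5 by DESeq2 in globin-poor libraries, 0 as reported in both. The causes were not tested. With the block, KO against WT called 0 genes in blood, in spleen and in globin-poor libraries, where all 9 values lay above 0, at 0.23 to 1.07. Nothing in the labels ties a replicate number to 1 mouse, and same-numbered libraries correlated at -0.75 to -0.30 where their kinds differed and at 0.44 to 0.66 where they matched. The number of the 9 genes higher in globin-rich libraries was 3 as reported, 2 with globin kept and 4 with DESeq2 size factors. Uros, with as few as 40 reads, is limited most by depth.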

Other observations

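Red cell genes beyond heme synthesis were also found in both directions. Of 19 markers of red cells and their precursors, 4 were higher in every globin-rich library, 4 were lower in every one and 11 overlapped. Over all genes 3.53% were higher and 49.8% lower without overlap, so the count of lower genes is no feature of these markers. Bpgm had a median of 29470 CPM in globin-rich and 351 CPM in globin-poor libraries, and Bnip3l, which directs removal of mitochondria in maturing red cells, of 7552 CPM in globin-rich and 234 CPM in globin-poor libraries. The transcription factor gene Klf1 had medians of 2.74 CPM in globin-rich and 443 CPM in globin-poor libraries, and the erythropoietin receptor gene Epor of 3.12 CPM in globin-rich and 233 CPM in globin-poor ones.

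Car2, which encodes carbonic anhydrase 2, and Sptb, which encodes a spectrin of the membrane skeleton, lay near level. Car2 had medians of 2895 CPM in globin-rich and 2786 CPM in globin-poor libraries. Sptb had medians of 700 CPM in globin-rich and 724 CPM in globin-poor ones. These 6 genes were chosen after their values were seen.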
